A study of Mus musculus with 8 samples.

Results

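The genes of the primary cilium were followed in IMCD, a cell line of the inner medullary collecting duct of the mouse kidney, exposed to hypertonic medium. They were taken from a table of 15288 genes by symbol alone (the Ift, Bbs, Dync2, Tctn and B9d families and single genes such as Cep290, Tulp3 and Pkd1), and 63 matched. The 63 genes were sorted by known role. The transport genes number 25, of which 11 encode intraflagellar transport complex B (IFT-B), 5 encode complex A (IFT-A) and 9 encode cilium motors. A further 10 belong to the BBSome, its chaperonins and its recruiting GTPase, and 16 to the transition zone. The remaining 12 comprise 3 genes for polycystins and fibrocystin, 2 for the inversin compartment, 4 for membrane cargo delivery, and 3 for centriolar appendages or the axoneme. Both groups of libraries came from the same line, grown almost to confluence and then left in DMEM without serum for 12 h. The control group (4 libraries, replicates 1 to 4) received no added salt, and the NaCl group (4 libraries, replicates 5 to 8) received 100 mmol NaCl, an amount the labels give without a volume. The labels do not say whether the libraries came from separate cultures, so the p-values measure the spread between these libraries, which may be technical.

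The primary cilium is a single, non-motile projection of the apical membrane, built on a modified centriole that docks to the membrane through its distal appendages. Kinesin-2 carries IFT-B trains and their cargo to the tip, cytoplasmic dynein-2 and IFT-A return them, and the BBSome is a coat that moves membrane proteins out of the cilium along these trains. The transition zone is the gate at its base, and the polycystins and fibrocystin are membrane proteins of the renal cilium whose loss causes polycystic kidney disease. In collecting duct cells the cilium projects into the tubule lumen, where it meets the flow and composition of the urine.

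Library totals were 41768063 to 47565623 counts for the controls and 35286796 to 42394487 with NaCl. Levels below are CPM, counts scaled to library totals that were adjusted by TMM, a between-library normalization. Defining markers of the labelled cell type were low in part. Aqp2, the vasopressin-regulated water channel, had 0 counts in control replicates 1 and 4, at most 0.072 CPM in control and 0.364 CPM in NaCl libraries, and Cdh1, epithelial cadherin, at most 0.332 and 0.709 CPM. The keratin genes Krt8 and Krt18 averaged 109 and 217 CPM in control libraries, and Col1a1, a collagen gene typical of fibroblasts, averaged 2492 CPM. Over the 13 of 14 principal cell markers in the table, the summed level was 322 to 414 CPM in control and 322 to 386 CPM in NaCl libraries. Nearly all of that sum was Krt8, Krt18 and Epcam. The 2 called higher were Avpr2 and Cdh1 (log2 change 2.60 and 1.43), and the 2 called lower Scnn1g and Gata3 (-0.84 and -0.44). Avpr2 averaged 0.108 CPM in control and 0.646 CPM in NaCl libraries. For 4 fibroblast markers the summed level was 2751 to 3182 CPM in control and 2403 to 2820.06 CPM in NaCl libraries. Among them Pdgfrb was called higher (0.70 on the log2 scale) and Col1a1 lower. Lrp2, a proximal tubule marker, averaged 185 CPM in control and 162 CPM in NaCl libraries and did not pass (edgeR adjusted p = 0.072). Leukocyte, thick ascending limb and intercalated cell markers also moved, each of these lists through a single gene. Ptprc, a leukocyte marker, averaged 4.06 CPM in control and 13.5 CPM in NaCl libraries (log2 change 1.73, edgeR adjusted p = 5.91e-10), while Cd68, the other leukocyte marker in the table, averaged 2.41 and 1.69 CPM and did not pass. Summed, the 2 were at 5.95 to 7.19 CPM in control and 14.93 to 15.34 CPM in NaCl libraries. The 3 thick ascending limb markers summed to 100.11 to 120.22 CPM in control and 71.96 to 89.78 CPM in NaCl libraries. Nearly all of that sum was Cldn10, which was called lower (-0.48, adjusted p = 0.0011), while Slc12a1 and Umod were at 0.63 and 0.29 without passing. Of 6 intercalated cell markers 1 was in the table, Atp6v0d2, which was called lower (1.84 and 0.326 CPM, log2 change -2.48, adjusted p = 7.08e-06). The part of these cell types in the results below was not tested.

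Primary cilium genes shifted in both directions with NaCl, and by small amounts. Of the 63 genes, 15 were called higher and 7 lower at an adjusted p under 0.05 (edgeR quasi-likelihood test, Benjamini-Hochberg over 14024 tested genes), and 41 did not pass. All 63 had passed the expression filter. Over all tested genes 34.1% were called, 16.9% higher and 17.2% lower. The 22 called cilium genes are 34.9% of their number, close to that background, so the number of calls does not set these genes apart. Among tested genes with a mean level of 15.3 to 44.5 CPM, the interquartile range of the cilium genes, 33.8% were called. In bulk RNA, fewer cells of a type and less RNA per cell cannot be told apart.

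The median log2 fold change of the 63 genes was 0.05, against 0.0029 over all tested genes, and the median absolute change was 0.13 against 0.14. None of the called cilium genes changed by as much as 1.5-fold. Kif17 alone passed that size, without passing the test. The 4 control libraries did not overlap the 4 NaCl libraries for 22 cilium genes, 16 higher and 6 lower with NaCl. For all tested genes that share was 33.4%. Summed over the 63 genes, the level was 2413, 2414, 2443 and 2459 CPM in control and 2597, 2568, 2576 and 2624 CPM in NaCl libraries. Genes with many counts weigh most in this sum. Pkd2 averaged 254 CPM in control and 307 CPM in NaCl libraries, and Pkd1 126 and 153 CPM. Ift80 averaged 66.1 and 92.8 CPM, and Pkhd1, which was not called, 222 and 213 CPM. Of the 63 genes, 35 had a positive and 28 a negative log2 fold change.

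**Figure D1:**
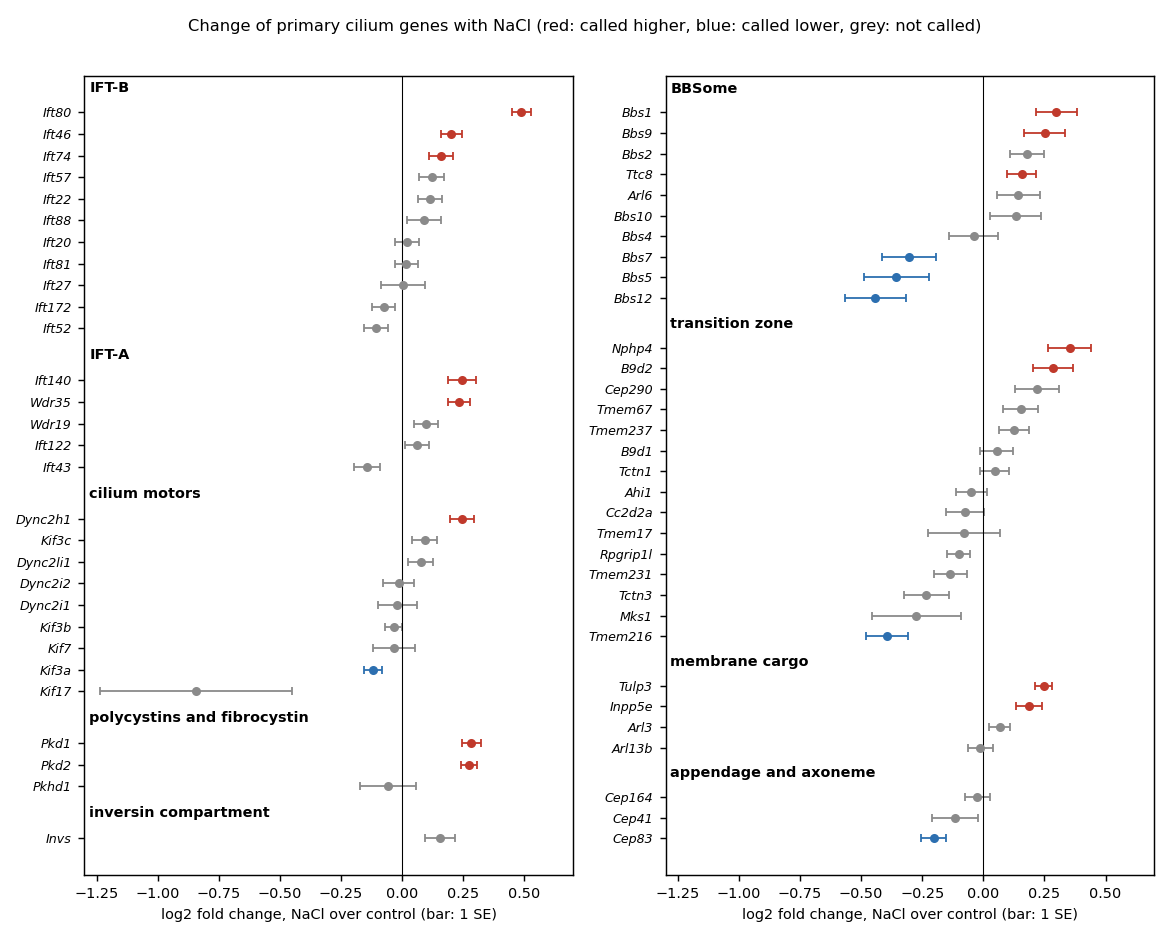
Log2 fold change (NaCl over control, horizontal axis) of 61 of the primary cilium genes by list, with bars of 1 SE. The called genes among them (red, higher, 15; blue, lower, 6) occur on both sides of 0 in the BBSome and transition zone lists, while Ift80 lies farthest to the right at 0.49.

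**Figure D2:**
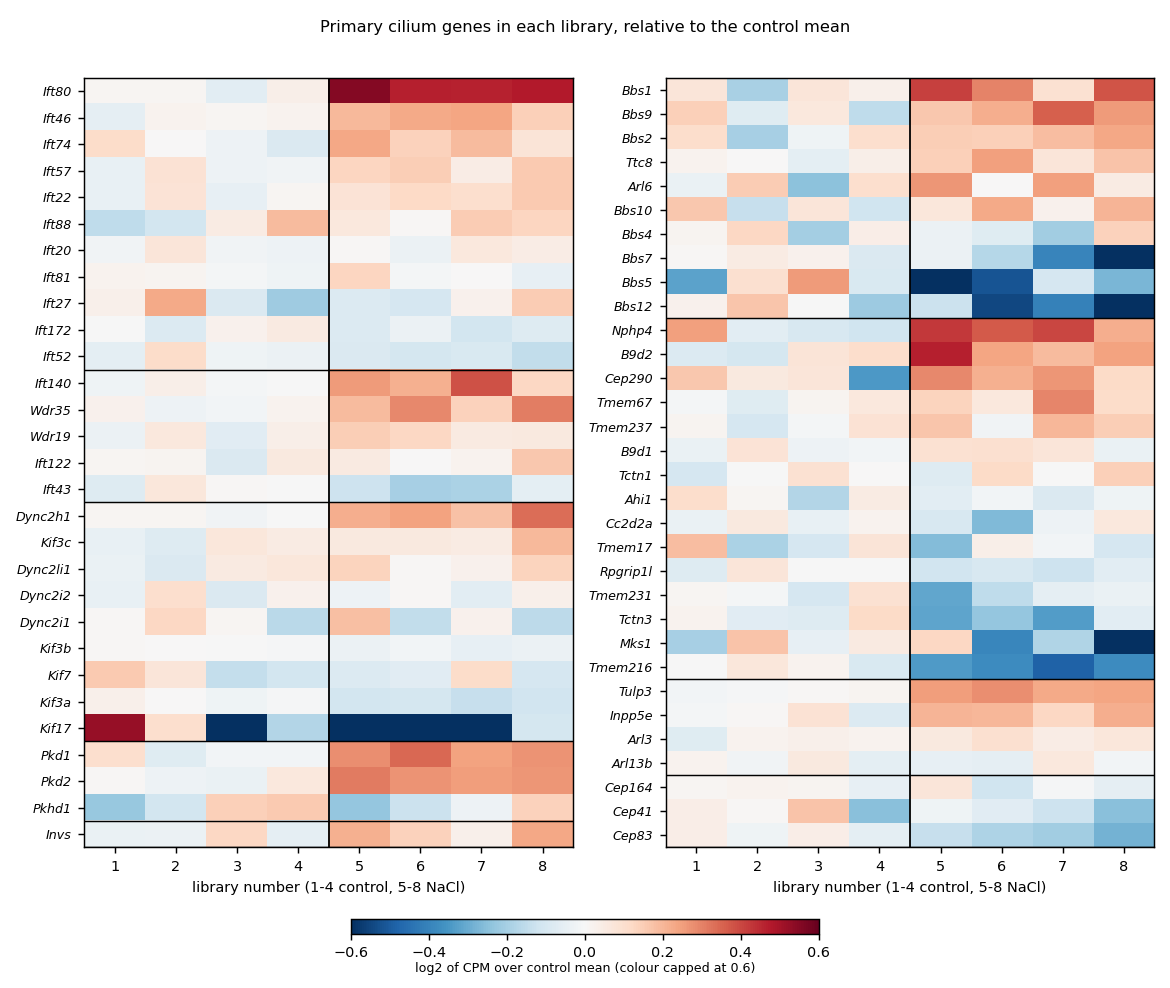
Level of 61 of the primary cilium genes in each of the 8 libraries as log2 of its CPM over the control mean, capped at 0.6 in either direction. Pkd1, Pkd2, Tulp3 and Ift80 are higher in all 4 NaCl libraries than in any control.

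Genes of the cilium are known targets of RFX transcription factors, which bind a short element called the X-box. The element was looked for in promoters, taken from RefSeq (GRCm38.p6) as 250 bases before to 50 after each start site. Promoters were matched for 54 of the 63 genes, and those without an entry included Dync2i1, Dync2i2, Dync2li1, Ift122, Ift80, Ift81 and Tmem67. The X-box was searched on both strands as GTNNCC, then any 3 bases, then GNAAC. It was found in 14 of the 63 promoters of these genes (22.2%), each belonging to a different gene. It was found in 714 of 32851 promoters in the whole table (2.17%) and in 362 of 13630 promoters of tested genes (2.66%). Ift22 held 2 matches, so there were 15 in all, of which 8 started upstream of the start site and 7 downstream.

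The matches of the 6 called genes among these 14 are printed first, because they show the same element in genes that moved in opposite directions. Those of Ift57, Tmem237 and Tctn1, which did not pass the test, follow for comparison. Sequences run 5′ to 3′ in the direction of the gene, capitals mark the match to the X-box letters or to their reverse complement, and matches that lie past the start site are printed alone.
Nphp4 (called higher, chr4:152477892-152477954, plus strand): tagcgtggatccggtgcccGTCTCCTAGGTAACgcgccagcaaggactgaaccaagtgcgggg
B9d2 (called higher, chr7:25680796-25680809, plus strand): GTTGCCCCAGCAAC
Bbs1 (called higher, chr19:4906613-4906626, minus strand): GTTGCCAAGGCGAC
Bbs7 (called lower, chr3:36613467-36613540, minus strand): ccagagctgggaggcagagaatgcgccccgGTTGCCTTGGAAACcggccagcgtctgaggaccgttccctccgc
Cep83 (called lower, chr10:94688746-94688789, plus strand): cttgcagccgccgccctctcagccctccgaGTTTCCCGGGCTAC
Tmem216 (called lower, chr19:10555731-10555744, minus strand): GTTTCCATGGGGAC
Ift57 (not called, chr16:49699177-49699250, plus strand): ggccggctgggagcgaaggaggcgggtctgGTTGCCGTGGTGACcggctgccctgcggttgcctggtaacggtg
Tmem237 (not called, chr1:59120097-59120153, minus strand): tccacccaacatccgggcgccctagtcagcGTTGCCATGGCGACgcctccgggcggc
Tctn1 (not called, chr5:122264411-122264424, minus strand): GTTGCCCGGGCAAC

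Of the 14 genes with a match, 3 were called higher and 3 lower (16.9% and 17.2% of all tested genes were), and the median log2 fold change was 0.0037. Of the 40 genes with a promoter and no match, 11 were called higher and 3 lower, with a median of 0.06. The difference between these sets was not tested. The element bound by NFAT5, the tonicity-responsive enhancer, was searched on both strands as TGGAAA, any 2 bases, C or T, any base, and C or T. It was found in 3 of the 63 promoters (4.76%) in 4.96% of all promoters and in 3.72% of those of tested genes. Those 3 belonged to Tulp3, which was called higher, Tmem216, which was called lower, and Ift43, which did not pass. No match of either element overlapped another. A match is a string of letters and not a measured binding site.

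Of the 25 transport genes, 6 were called higher and Kif3a lower (16.9% and 17.2% of all tested genes were), and 18 did not pass. Their median log2 fold change was 0.06, and their summed level was 997 to 1024 CPM in control and 1064 to 1085 CPM in NaCl libraries.

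Among the 11 IFT-B genes, 3 were called higher, where 16.9% of all tested genes were, and 8 did not pass. Ift80 (ENSMUSG00000027778, GRCm38 chr3:68892499-69004570) encodes a peripheral IFT-B subunit whose mutation causes a short-rib skeletal ciliopathy. Its level was 66.6, 66.7, 63.3 and 67.8 CPM in control and 96.98, 91.2, 91.0 and 91.8 CPM in NaCl libraries. The groups lay well apart, with the highest control library below the lowest NaCl library. It rose 1.40-fold, from 66.1 ± 1.95 to 92.8 ± 2.84 CPM (SD, n = 4 each), or by 0.49 on the log2 scale with an SE of 0.0391 and an edgeR adjusted p of 6.22e-08. This was the most positive log2 fold change and the lowest adjusted p of the 63 genes.

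Ift46, a core IFT-B subunit that imports outer dynein arms in motile cilia, had 41.7, 43.9, 43.7 and 43.96 CPM in control and 49.6, 50.7, 51.1 and 47.9 CPM in NaCl libraries, with no overlap. Its log2 fold change was 0.20 (SE 0.0442; adjusted p = 0.00198). Ift74, which with Ift81 forms the tubulin-binding module of the train, had 57.5, 53.4, 52.3 and 50.2 CPM in control and 62.6, 58.7, 60.9 and 56.3 CPM in NaCl libraries. Here the ranges overlapped, because control replicate 1 lay above NaCl replicate 8. The log2 fold change of Ift74 was 0.16 (adjusted p = 0.0207), and it was not called without control replicate 3 or 4 or NaCl replicate 5 or 7 (adjusted p 0.0588 to 0.0647). Its partner Ift81 had a log2 fold change of 0.02 (adjusted p = 0.804).

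Ift88, which is required for cilium assembly and is mutated in the Oak Ridge polycystic kidney mouse, had 25.99, 26.8, 29.9 and 32.9 CPM in control and 30.2, 29.0, 32.2 and 31.6 CPM in NaCl libraries. The groups overlapped, and the controls alone spanned a wider range than the NaCl libraries. Its log2 fold change was 0.09 (SE 0.0709; adjusted p = 0.355). Ift20, the subunit that also sits at the Golgi, was at 35.4, 37.7, 35.4 and 35.2 CPM in control and 36.1, 35.02, 37.5 and 37.0 CPM in NaCl libraries, with a log2 fold change of 0.02 (adjusted p = 0.795, SE 0.0491). The other members of the list were between -0.11 (Ift52) and 0.12 (Ift57) on the log2 scale.

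Of the 5 IFT-A genes, 2 were called higher, where 16.9% of all tested genes were. Wdr35 (GRCm38 chr12:8973892-9028847), which encodes the IFT121 subunit, had 59.4, 57.2, 57.6 and 59.3 CPM in control and 66.6, 71.3, 64.3 and 72.2 CPM in NaCl libraries. All NaCl libraries lay above all controls, and the log2 fold change was 0.23 (SE 0.0447, adjusted p = 6.80e-04). Ift140, a further IFT-A subunit, had 29.3, 30.5, 29.6 and 29.8 CPM in control and 35.5, 34.5, 38.8 and 32.5 CPM in NaCl libraries, a log2 fold change of 0.25 (adjusted p = 0.00321), again with no overlap. Ift43 went the other way, at -0.14, and missed the threshold with an adjusted p of 0.05002. The remaining subunit genes, Wdr19 and Ift122, were at 0.10 and 0.06 and did not pass (adjusted p = 0.15 and 0.368).

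Of the 9 motor genes, 1 was called lower and 1 higher, where 17.2% and 16.9% of all tested genes were. Kif3a, a motor subunit of kinesin-2, had 67.5, 66.4, 65.0 and 65.8 CPM in control and 61.2, 61.5, 60.1 and 61.1 CPM in NaCl libraries. It fell from 66.2 ± 1.06 to 61.0 ± 0.631 CPM (SD, n = 4 each), with a log2 change of -0.12, an SE of 0.0377 and an edgeR adjusted p of 0.0231, with no overlap between the groups. The call was lost without control replicate 1 (0.0525) or NaCl replicate 7 (0.0596), and with a linear term over the library numbers (-0.08, adjusted p = 0.505). Kif3b, its partner subunit, also separated the groups, but by -0.03 on the log2 scale (adjusted p = 0.479). Kif3c and Kif7, a further kinesin-2 subunit and the tip regulator of Hedgehog signalling, were at 0.09 and -0.03 (adjusted p = 0.18 and 0.792).

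Dync2h1 (GRCm38 chr9:6928503-7184446), the heavy chain of cytoplasmic dynein-2, had 37.1, 37.2, 36.3 and 36.7 CPM in control and 42.9, 43.6, 41.6 and 46.4 CPM in NaCl libraries. It rose from 36.8 ± 0.404 to 43.6 ± 2.05 CPM, or by 0.24 on the log2 scale with an SE of 0.0481 and an adjusted p of 8.55e-04, and every NaCl library exceeded every control. The dynein-2 intermediate and light intermediate chain genes did not pass, at -0.02 for Dync2i1, -0.01 for Dync2i2 and 0.08 for Dync2li1. Kif17, an accessory kinesin, was the least expressed cilium gene, with 44, 29, 16 and 24 counts in the controls and 10, 10, 13 and 25 with NaCl. Its log2 fold change of -0.84 had an SE of 0.393 and an adjusted p of 0.11, and the lowest adjusted p among the 8 fits that left out a library was 0.0421.

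Of the 10 BBSome genes 6 were called, where 34.1% of all tested genes were, and they moved in opposite directions. Whether this share differs from that of the other lists was not tested. Bbs1, Bbs9 and Ttc8 were called higher, and Bbs5, Bbs7 and Bbs12 lower. Their median log2 fold change was 0.14 and their median absolute change 0.21. The number called was sensitive to single libraries, at 2 without control replicate 2, 3 without control replicate 3 and 2 without NaCl replicate 8. Only Bbs1 and Bbs12 were called in each of the 8 fits that left out a library, and neither passed with a linear term over the library numbers (0.33, adjusted p = 0.118, and 0.06, adjusted p = 0.877).

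Bbs1 (GRCm38 chr19:4886878-4906628), the subunit that contacts cargo and carries the most frequent Bardet-Biedl mutation, had 16.9, 14.04, 16.9 and 16.4 CPM in control and 21.4, 19.8, 17.2 and 20.9 CPM in NaCl libraries. NaCl replicate 7 lay close to the controls, without overlap. It rose from 16.1 ± 1.39 to 19.8 ± 1.89 CPM (SD, n = 4 each), or by 0.30 on the log2 scale with an SE of 0.0833 and an edgeR adjusted p of 0.0106. Bbs9, a scaffold subunit, had 12.99, 11.2, 12.3 and 10.6 CPM in control and 13.2, 13.7, 15.1 and 14.1 CPM in NaCl libraries, so that control replicate 1 almost reached the lowest NaCl value. Its log2 fold change was 0.25 (adjusted p = 0.0297), and the call was lost without control replicate 2 or 4 or NaCl replicate 7 or 8 (0.0555 to 0.0967), and with the linear library-number term (0.32, adjusted p = 0.185). Ttc8, which encodes BBS8, rose by 0.16 (adjusted p = 0.0486) and was lost in 7 of the 8 fits without a library (0.0611 to 0.15). Of these fits, that without NaCl replicate 7 kept it, and median-of-ratios scaling, no expression filter or the linear library-number term (0.18, adjusted p = 0.309) also ended the call.

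Bbs7, a propeller subunit of the coat, had 14.8, 15.2, 14.98 and 13.9 CPM in control and 14.4, 13.1, 11.2 and 9.17 CPM in NaCl libraries. NaCl replicate 5 lay among the controls and the other NaCl libraries below them, with a wider spread than the controls. Its log2 fold change was -0.30 (SE 0.111; adjusted p = 0.0446). The call was lost without control replicate 1, 2 or 3 or NaCl replicate 7 or 8 (0.0699 to 0.119), with library totals alone, and with the linear library-number term (0.16, adjusted p = 0.548). Without NaCl replicate 8 the log2 change was -0.20. Bbs5, the subunit that binds phosphoinositides, had 8.32, 11.1, 12.4 and 9.77 CPM in control and 6.86, 7.26, 9.69 and 8.60 CPM in NaCl libraries, with overlap. Its log2 fold change was -0.36 (SE 0.132; adjusted p = 0.049), and the call was lost in 6 of the 8 fits without a library, all but those without control replicate 1 or NaCl replicate 7 (0.0512 to 0.153), and with limma-voom.

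Bbs12, a chaperonin-like protein needed to assemble the complex, had 9.54, 10.5, 9.35 and 8.06 CPM in control and 8.56, 6.41, 7.08 and 5.62 CPM in NaCl libraries. Control replicate 4 lay below NaCl replicate 5, and the other libraries were separate. It fell from 9.37 ± 1.01 to 6.92 ± 1.25 CPM, with a log2 change of -0.44, an SE of 0.124 and an adjusted p of 0.0109. Bbs10, its chaperonin partner, was at 0.13 (adjusted p = 0.353). Bbs4, a subunit that links the complex to centriolar satellites, had 9.68, 10.5, 8.31 and 9.86 CPM in control and 9.35, 9.10, 8.29 and 10.5 CPM in NaCl libraries. These groups overlapped throughout, at -0.04 on the log2 scale (SE 0.0996, adjusted p = 0.792). Bbs2 did not overlap between the groups, with a log2 fold change of 0.18, and missed the threshold (adjusted p = 0.0602). Arl6, the GTPase that recruits the coat to membranes, was at 0.14 (adjusted p = 0.234). Of 7 partner genes of the BBSome under other names, 3 were called higher, where 16.9% of all tested genes were, and 4 did not pass. The called ones were Mkks, a chaperonin, at 0.32 (adjusted p = 0.0316), Rab3ip, the exchange factor for Rab8, at 0.23 (adjusted p = 0.00159), and the small subunit gene Bbip1 at 0.20 (adjusted p = 0.0142). Lztfl1, Cep19, Rabl2 and Rab8a were at 0.02, 0.04, 0.03 and -0.08. With a linear term over the library numbers Mkks, Rab3ip and Bbip1 were at 0.07, -0.02 and 0.20 and none of these 3 passed (adjusted p 0.855, 0.903 and 0.26).

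**Figure D3:**
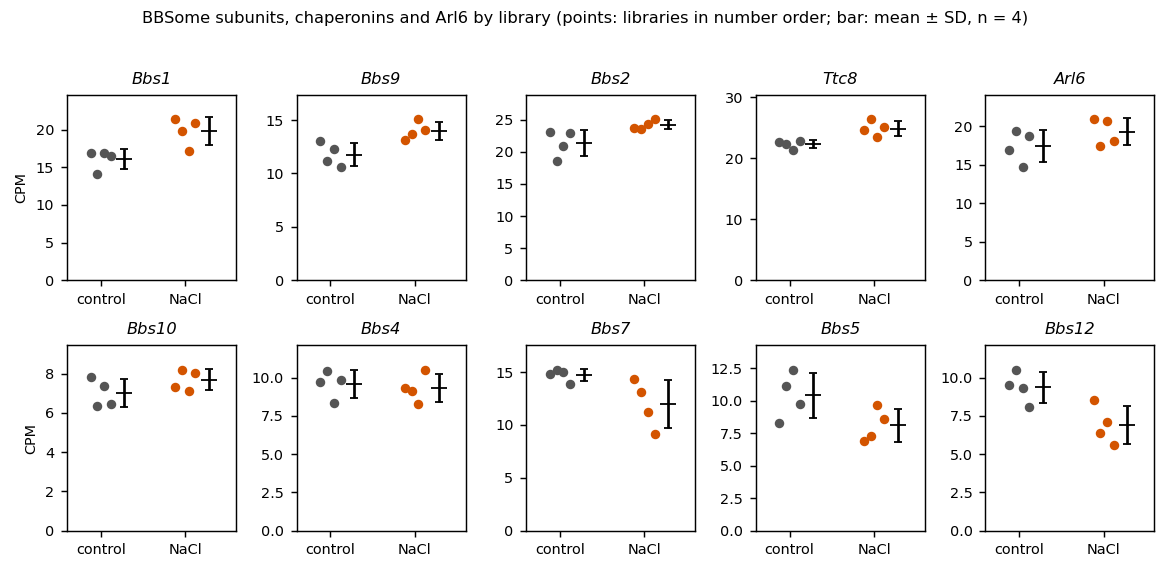
CPM of the 10 BBSome, chaperonin and Arl6 genes in each library, with the mean and SD of each group (n = 4) beside the points and a vertical axis that starts at 0. Bbs1 and Bbs9 are higher in all 4 NaCl libraries, while the NaCl libraries of Bbs7 spread from 9.17 to 14.4 CPM.

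Of the 16 transition zone genes, 3 were called (18.8%, beside 34.1% of all tested genes). Nphp4 and B9d2 were called higher, Tmem216 lower, and 13 did not pass, and the median log2 fold change was -0.06. DESeq2 called 5 of the 16, and a fit with a term for the library number, centred inside its group, called 6. Nphp4, a scaffold of the nephronophthisis module, had 15.6, 12.5, 12.3 and 12.1 CPM in control and 17.6, 16.9, 17.3 and 15.2 CPM in NaCl libraries. Control replicate 1 stood above the other controls and above NaCl replicate 8. Nphp4 rose from 13.1 ± 1.65 to 16.8 ± 1.05 CPM (SD, n = 4 each), or by 0.35 on the log2 scale with an SE of 0.0887 and an edgeR adjusted p of 0.00527.

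B9d2, a B9-domain subunit of the MKS module, had 12.7, 12.5, 14.2 and 14.5 CPM in control and 18.6, 15.9, 15.4 and 15.96 CPM in NaCl libraries. No libraries overlapped, and the log2 fold change was 0.29 (SE 0.0821, adjusted p = 0.0123). Tmem216, a tetraspan membrane protein of the same module, had 10.4, 10.9, 10.5 and 9.74 CPM in control and 8.20, 7.99, 7.42 and 7.98 CPM in NaCl libraries, again without overlap. It fell from 10.4 ± 0.475 to 7.90 ± 0.337 CPM, with a log2 change of -0.39, an SE of 0.0853 and an adjusted p of 0.00183. Exons of Tmem216 overlap those of Cpsf7 on the opposite strand over 5.15% of their length, and Cpsf7 was called in the other direction (log2 fold change 0.11, adjusted p = 0.0363).

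Cep290, the large protein that bridges the axoneme and the ciliary membrane, had 40.3, 37.6, 37.99 and 28.4 CPM in control and 44.0, 41.8, 43.3 and 39.0 CPM in NaCl libraries. Control replicate 4 was the lowest library by far, and the SD of the controls, 5.26 CPM, was close to the difference of the means. The log2 fold change was 0.22 (SE 0.0916, adjusted p = 0.0855). DESeq2 gave an adjusted p of 0.0494, and the edgeR value was 0.0332 without control replicate 1 and 0.00172 with the centred library number. The linear library-number term gave 0.61 (adjusted p = 2.90e-04). Without control replicate 4, the low library, the log2 change was 0.12 (adjusted p = 0.118). Exons of Cep290 overlap 4930430F08Rik on the opposite strand over 7.58% of their length, and that gene was called higher. Tctn3 and Mks1 had log2 fold changes of -0.23 and -0.27 without passing (adjusted p = 0.0585 and 0.274), and the other genes of this gate lay between -0.13 (Tmem231) and 0.15 (Tmem67).

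The polycystins rose with NaCl. Pkd2 (ENSMUSG00000034462, GRCm38 chr5:104459450-104505819) encodes polycystin-2, a cation channel of the ciliary membrane. It had 255, 248, 247 and 265 CPM in control and 315, 305, 302 and 305 CPM in NaCl libraries. It rose 1.21-fold, from 254 ± 8.26 to 307 ± 5.62 CPM (SD, n = 4 each), or by 0.27 on the log2 scale with an SE of 0.0332 and an edgeR adjusted p of 8.10e-06.

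Pkd1 (ENSMUSG00000032855, GRCm38 chr17:24549834-24596508) encodes polycystin-1, the large receptor-like partner of that channel. It had 134.9, 119.6, 125 and 125 CPM in control and 153, 160.03, 149 and 152 CPM in NaCl libraries. It rose 1.22-fold, from 126 ± 6.45 to 153 ± 4.81 CPM, or by 0.28 on the log2 scale with an SE of 0.0400 and an adjusted p of 3.79e-05. The groups did not overlap for either polycystin gene. Exons of Pkd1 overlap Tsc2 on the opposite strand over 3.98% of their length, and Tsc2 had a log2 fold change of 0.01 (adjusted p = 0.806).

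Pkhd1 (ENSMUSG00000043760, GRCm38 chr1:20057779-20618064) encodes fibrocystin, the protein of recessive polycystic kidney disease. It had 189.5, 206, 245 and 247 CPM in control and 189, 203, 217 and 244 CPM in NaCl libraries. The groups covered the same range, and the spread within each followed the library number (slope 0.13 on the log2 scale per number, centred within the groups). The log2 fold change was -0.06 (SE 0.115, adjusted p = 0.754). With a linear term over all 8 library numbers, which draws on the slope within the groups, it was -0.58 (adjusted p = 4.03e-09).

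Of the 4 genes that deliver membrane cargo, 2 were called higher, where 16.9% of all tested genes were. Tulp3 (GRCm38 chr6:128321161-128355851), an adaptor that brings receptors to the cilium on IFT-A, had 71.4, 71.8, 72.7 and 73.0 CPM in control and 85.8, 87.6, 84.6 and 85.0 CPM in NaCl libraries. The spread within each group was small beside the gap between them. It rose from 72.2 ± 0.726 to 85.7 ± 1.35 CPM, or by 0.25 on the log2 scale with an SE of 0.0354 and an adjusted p of 4.47e-05. Inpp5e, the phosphatase that sets the ciliary phosphoinositides, had 27.6, 27.98, 29.6 and 26.3 CPM in control and 32.1, 31.97, 30.4 and 32.4 CPM in NaCl libraries, a log2 fold change of 0.19 (adjusted p = 0.0136). Its exons overlap Pmpca on the opposite strand over 20.3% of their length, and Pmpca was at -0.07 (adjusted p = 0.141).

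Arl13b, the GTPase used as a cilium marker, had 35.5, 34.5, 36.5 and 33.6 CPM in control and 33.9, 33.7, 36.6 and 34.7 CPM in NaCl libraries. Its groups overlapped, at -0.01 on the log2 scale (SE 0.0509, adjusted p = 0.87). Arl3, which releases lipidated cargo inside the cilium, was at 0.07 (adjusted p = 0.238). Cep83, a distal appendage protein needed for docking, had 42.2, 40.3, 42.2 and 39.4 CPM in control and 37.3, 36.0, 35.5 and 33.7 CPM in NaCl libraries, without overlap. It fell from 41.0 ± 1.43 to 35.6 ± 1.49 CPM (SD, n = 4 each), with a log2 change of -0.20, an SE of 0.0501 and an edgeR adjusted p of 0.00459. With a linear term over the library numbers it was -0.07 (adjusted p = 0.683), which ended the call. Cep164, which sits on the same appendages, and Cep41, a tubulin glutamylation factor, were at -0.03 and -0.12 (adjusted p = 0.742 and 0.372).

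Levels were compared between genes per kilobase of annotated exon (GENCODE M21), a length that includes rarely used exons and so understates genes with many of them. In control libraries Pkd2 ranked first at 24.95 CPM per kb, followed by Ift20 at 23.6, Arl3 at 21.7, Dync2li1 at 21.5 and Ift43 at 21.4. At the other end Kif17 had 0.14, Mks1 0.767, Bbs4 1.59 and Bbs9 1.88 CPM per kb. BBSome subunits that form a single complex ranged from 1.59 (Bbs4) to 6.46 (Bbs2) CPM per kb. The order of neighbouring genes was not tested.

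**Figure D4:**
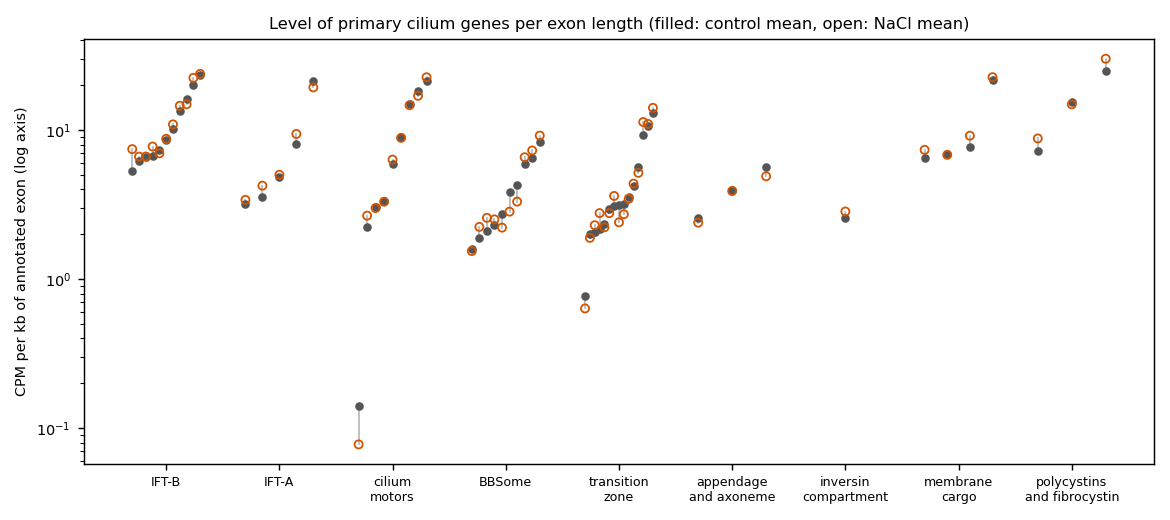
Mean CPM per kb of annotated exon (log axis) of 61 of the primary cilium genes by list, in control (filled) and NaCl (open) libraries. Levels run from 0.14 (Kif17) to 24.95 (Pkd2) in control, and the paired points lie close together for nearly every gene.

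Further cilium genes, listed by role, were read from the same fit, and their counts stand beside 16.9% called higher and 17.2% called lower over all tested genes. Of 11 tested transport genes with other names, 2 were called lower. Hspb11, which encodes the IFT25 subunit, fell from 14.5 ± 0.692 to 10.2 ± 0.688 CPM (SD, n = 4 each), with a log2 change of -0.51 (edgeR adjusted p = 1.00e-04), and Dynll1 was the other. Of 19 transition zone and effector genes 5 were called higher and 1 lower, led by Fuz, a planar polarity effector, at 0.59 (adjusted p = 6.07e-05). Centriole and vesicle genes that act at the start of a cilium, for or against it, were called in both directions, 4 higher and 4 lower of 17. Cep131, a satellite protein in that list, was at 0.32 (adjusted p = 0.00112). Of 12 resorption genes 2 were called higher, with Hdac6 at 0.11 (adjusted p = 0.0254).

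Hedgehog genes, whose signal runs through the cilium, were called 3 higher and 3 lower of 18, near the shares over all tested genes (16.9% and 17.2%). The receptor partner gene Boc had the highest absolute change among the called genes, -0.56 (adjusted p = 0.00478), and Gas1, a further co-receptor, was at 0.50 (adjusted p = 1.46e-07). The pathway output genes Gli1 and Ptch1 did not pass, at 0.13 and -0.02, and Gli1 averaged 0.746 CPM in control and 0.815 CPM in NaCl libraries. With a linear term over the library numbers Ptch1 was called lower (-0.32, adjusted p = 0.0277). Of 11 tested transcription factor genes 2 were called higher and 3 lower. Rfx1 was called higher (0.20, adjusted p = 0.00467), Rfx2 and Rfx3 did not pass (0.14 each), and Foxj1, the regulator of motile cilia, was called lower (-0.44, adjusted p = 0.00555).

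Of 13 polycystin partner and cyst genes 3 were called higher and 1 lower, where 34.1% of all tested genes were called. Adcy6, a ciliary adenylyl cyclase, rose from 211 ± 7.03 to 279 ± 2.56 CPM (SD, n = 4 each), or by 0.40 on the log2 scale (edgeR adjusted p = 7.55e-08). Tubulin-modifying genes were called higher in 6 of 16, where 16.9% of all tested genes were, with Ttll10 at 0.62 (adjusted p = 3.23e-04). Markers of multiciliated cells were scarce: 4 of 12 were in the table, their summed level was 15.95 to 21.2 CPM in control and 12.6 to 15.7 CPM in NaCl libraries, and 2 were called lower. Because cilia are resorbed before division, proliferation markers are given beside these results. Of 15, 3 were called lower, led by Bub1 at -0.26 (adjusted p = 6.01e-04), with a summed level of 2094 to 2544 CPM in control and 2006 to 2241 CPM in NaCl libraries. With a linear term over the library numbers these 3 calls were lost (Bub1 -0.04, adjusted p = 0.756) and 6 other proliferation markers were called higher, among them Mki67 (0.42, adjusted p = 2.37e-07). The same term ended the calls of Ttll10 (0.29, adjusted p = 0.382), Hdac6 (0.05, 0.639), Boc (-0.67, 0.0607) and Rfx1 (0.18, 0.201), and moved Foxj1 to -1.02 (1.30e-05). Hspb11, Dynll1, Fuz, Cep131, Gas1 and Adcy6 stayed called in the same direction. Of the other called tubulin-modifying genes, Ttll1, Agbl3 and Atat1 lost the call (0.27, 0.28 and 0.18, adjusted p 0.0866, 0.371 and 0.3245). Ttll7 and Agtpbp1 kept it. The part of multiciliated and dividing cells in the cilium values was not tested.

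**Figure D5:**
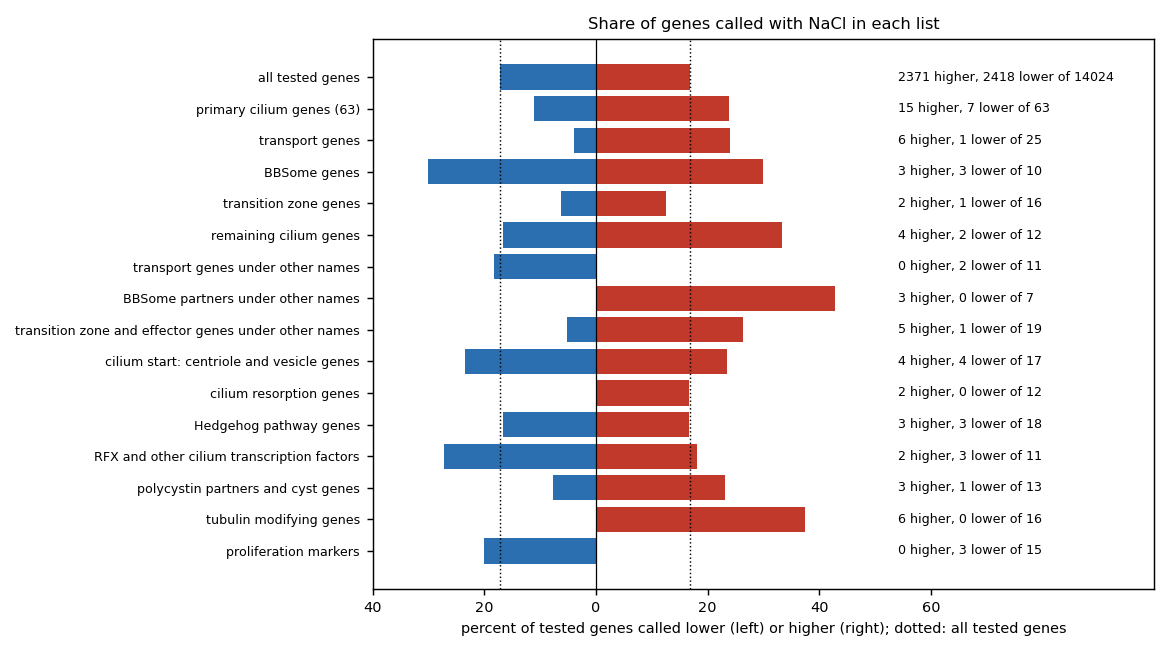
Percent of tested genes called higher (red) or lower (blue) with NaCl in each list, with the shares of all tested genes (16.9% higher and 17.2% lower) as dotted lines and the numbers printed at the right. The 63 cilium genes show 15 higher and 7 lower, and the bars of short lists rest on few genes.

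The number of a library (1 to 4 for controls, 5 to 8 with NaCl) moved with some cilium genes, by a single slope fitted to both groups together. Slopes inside each group alone were not tested. With that number centred inside its group, 4 of the 63 genes had a slope at an adjusted p under 0.05, Pkhd1 and Ift88 upward and Bbs7 and Cep290 downward, where 13.2% of all tested genes did. With a linear term over all 8 numbers, 24.1% of tested genes and 11 cilium genes were called, 7 higher and 4 lower. With and without the term, 8 genes were called in the same direction, among them Ift80, Ift74, Nphp4, Pkd1, Pkd2 and Tulp3, higher, and Bbs5, lower. The term moved Nphp4 from 0.35 to 0.71, Ift74 from 0.16 to 0.37 and Bbs5 from -0.36 to -0.81 on the log2 scale. The term ended other calls, given here with the log2 change without and with it and the adjusted p with it. They were Ift46 (0.20 and 0.19, adjusted p = 0.133), Wdr35 (0.23 and 0.19, 0.096) and Ift140 (0.25 and 0.28, 0.0638). Dync2h1 (0.24 and 0.20, 0.132), Tmem216 (-0.39 and -0.29, 0.282), B9d2 (0.29 and 0.29, 0.196) and Inpp5e (0.19 and 0.21, 0.168) were also lost. So were Cep83, Kif3a, Ttc8, Bbs1, Bbs7, Bbs9 and Bbs12. Under the term Bbs7 and Bbs12 changed sign, to 0.16 and 0.06, and Pkhd1, Tmem231 and Cep290 were called without having been called before. The labels do not say what the number stands for, and since it does not overlap between the groups, a drift over it and the effect of NaCl cannot be told apart.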

How the data were processed

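RNA of 8 libraries was measured by bulk sequencing. Per the submitters' processing notes, Trim Galore 0.6.7, STAR and DESeq2 1.34.0 were used with build mm10. The counting program, strandedness and gene filter are not given in the sources used here. The authors deposited raw counts per Ensembl gene, with totals of 35286796 to 47565623 per library, and the counts were the input to every test here. The deposited normalized table was not used. The values of 2 cilium genes are not reported here, although the counts of calls include them. The cilium genes, gene lists and alternatives were chosen with earlier results of these data known.

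Genes were filtered with filterByExpr (minimum count 10), leaving 14024 of 15288, and tested in R 4.3.3 with edgeR 4.0.16: TMM, a robust quasi-likelihood fit with group as the only term, an F test and Benjamini-Hochberg adjustment over all tested genes. Calls used an adjusted p under 0.05. Values in every library are given for the 8 called cilium genes with the highest and the 8 (here 7) with the lowest log2 fold change, for 10 preset genes (Ift88, Ift20, Kif3a, Dync2h1, Bbs4, Cep290, Arl13b, Pkd1, Pkd2 and Pkhd1) and for the lowest adjusted p in each list. From the lists of other cilium genes, which leave out the cell type markers, the called gene with the highest absolute change is named. Other genes given with values were picked after those values were seen. Replicate libraries of a group differed by more than counting noise in all 12 pairs. Exon lengths and overlaps came from GENCODE M21 (GRCm38), which held 15274 of the identifiers, and promoters from RefSeq. Alignments of at least 75 bases at 98% identity (blastn 2.17.0) joined cilium genes mostly to genes that overlap them. Among called genes, Kif3a shared 3.23% of its longest transcript with Dennd4a and Bbs1 1.46% with Tsg101. The test was checked on simulated counts for 13779 genes, where 54% of genes changed by 0.25 and 73.5% of those changed by 0.5 on the log2 scale were recovered. The simulation changed few genes (50 by 0.25 and 49 by 0.5) and held no trend along the library number. In the data 34.1% of tested genes were called, so these rates need not hold there. Alternatives were DESeq2 1.42.0, limma-voom (limma 3.58.1), other scalings, filters and thresholds, the library number as a covariate, and leaving out each library.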

Additional observations from a re-analysis of the deposited data

Results flagged for a closer look

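In 46 groups of 4 libraries, 4 had a single value far from the remaining 3, where chance gives about 1 in 20 groups. For Ift80, NaCl replicate 5 was at 96.978 CPM and the rest at 91.03 to 91.83 CPM. Leaving it out gave a log2 fold change of 0.47 (edgeR adjusted p = 3.52e-07). For Nphp4, control replicate 1 was at 15.551 CPM and the rest at 12.06 to 12.54 CPM, and leaving it out gave 0.45 (adjusted p = 3.60e-04). For B9d2, NaCl replicate 5 was at 18.637 CPM and the rest at 15.41 to 15.96 CPM, and leaving it out gave 0.22 (adjusted p = 0.048). For Ift20, control replicate 2 was at 37.745 CPM and the rest at 35.21 to 35.38 CPM, and leaving it out gave 0.04 (adjusted p = 0.607).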

How the results depend on the processing

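Of 368 refits of the 23 genes given in full, 329 kept direction and side of the threshold, 27 lost the call, 5 gained it and 7 changed sign. With a linear drift over the library numbers the cilium genes called were 7 higher and 4 lower, with 2 transport and 1 BBSome gene among them, and the signs of Bbs12 (0.0611), Bbs7 (0.16) and Ift88 (-0.21) changed. With the number centred within groups instead, 22 of the 23 genes given in full kept direction and side of the threshold, and 1 gained the call. At an adjusted p under 0.01, 9 were called higher and 3 lower, and 3145 of all genes. No BBSome gene passed that threshold in edgeR (7 of 10 had an unadjusted p under 0.05), while DESeq2 passed 2 and limma-voom 0. Transition zone genes called were 5 with DESeq2 and 6 with the library number centred within groups. Without each library in turn the calls ranged from 13 to 16 higher, 5 to 8 lower, 5 to 9 transport, 2 to 5 BBSome, 3 to 4 transition zone, 6 to 7 remaining and 4071 to 4634 of all genes. Bbs4 (-0.1068 to 0.0114) changed sign without control replicate 2 (0.0015) or NaCl replicate 7 (0.0114), and Arl13b (-0.0407 to 0.0040) without control replicate 3 (0.0040) or NaCl replicate 6 (0.0004), both within their errors. Of the 22 calls, 16 were kept in all 8 of these refits, 12 higher and 4 lower. The causes were not tested. No paired analysis was possible because the groups share no library numbers. Kif17, Mks1 and Tmem17 had the fewest counts.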
